A study of Mus musculus with 8 samples.

Results

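Bcl6, its paralog Bcl6b and 6 genes of corepressors that work with the BCL6 protein (Bcor, Bcorl1, Ncor1, Sirt1, Mta3 and Ctbp1) were examined as the targeted repressor and its known cofactors. A gene entered through a probe set that names it alone, and of several such probe sets the brightest over all arrays was kept. By this rule 7 of the 8 genes were measured, among 19938 genes tested. Expression of Ncor1 was not analysed here. Total RNA came from mouse neocortex at postnatal day 5, of which layers II to IV had been cut out with a laser, and each pup had 1 Affymetrix Mouse Gene 1.0 ST array. The 4 control pups were Bcl6 flox/flox;Nex +/+ and the 4 mutant pups were Bcl6 flox/flox;Nex Cre/+. All 8 pups therefore carried both floxed Bcl6 alleles, and the mutants alone carried Cre, in 1 copy of the Nex locus. Neurod6, as Nex is also called, is active in excitatory cortical neurons after their last division, and interneurons, glia and vessel cells of the captured tissue are not the cells that Cre addresses. The arrays measure the captured tissue in bulk, in which fewer cells of a type and less RNA per cell cannot be told apart.

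BCL6 is a transcriptional repressor with zinc fingers that bind DNA and a BTB domain that docks corepressors. The BTB domain binds the corepressors NCOR1 and BCOR, while MTA3 joins the protein through its middle region and brings the NuRD deacetylase complex. In developing cortex BCL6 is known for driving neuronal differentiation, where it silences the Notch target Hes5 together with the deacetylase SIRT1. In B cells, where it is best known, the protein also binds and represses its own gene.

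The deposited values are on a log2 scale, ran from 0.74 to 13.63, and had array medians between 4.94 and 5.01. They come with no detection call, so whether a gene is expressed at all was not assessed, and the number of arrays limits the precision. Mutant and control arrays were compared by limma across all genes, and a gene was called at a Benjamini-Hochberg adjusted p under 0.05. This called 13 genes, or 0.0652%, of which 10 (0.0502%) were higher and 3 (0.015%) lower in mutants. Xist, the RNA of the inactive X chromosome, was at 9.78 in mutant replicate 1 and at 9.76 in mutant replicate 4, whereas the other 6 arrays ranged from 2.64 to 3.41. The Y-linked genes Kdm5d, Eif2s3y and Uty moved the other way, reading 2.29 to 3.09 in those 2 arrays and 5.47 to 7.79 in the rest. No control array showed this pattern, so it was not balanced between the genotypes, and the main fit had no term for it. Calls and the larger shifts without those 2 arrays are given beside the values concerned. Neurod6 itself, whose locus carries Cre in mutants, read 9.22 ± 0.13 (SD, n = 4) in controls and 8.83 ± 0.17 in mutants. Every mutant lay below every control in Neurod6, as in 1.79% of all genes. Among other markers of excitatory neurons, Slc17a7 read 7.93 ± 0.31 in controls and 7.78 ± 0.15 in mutants, and Neurod2 9.02 ± 0.14 and 9.03 ± 0.18. Tbr1 read 8.90 ± 0.09 and 9.07 ± 0.03, with every mutant above every control, as in 0.963% of all genes. Over the 6 tested markers of excitatory neurons 3 differences were positive and 3 negative.

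None of the 7 genes was called by limma, and 2 of them, Bcl6 and Bcl6b, had an unadjusted p under 0.05, a share of 4.91% over all genes. Of the 7 differences 2 were positive and 5 negative, with a median of -0.01 on the log2 scale, as over all genes (-0.01). The median size of a difference, without its sign, was 0.12 in these genes and 0.05 over all genes. Groups did not overlap in 1 of the 7 genes, Bcl6, and in 2.75% of all genes, 0.963% with the mutants above and 1.79% with the mutants below.

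Bcl6 itself read higher, not lower, in the arrays labelled mutant. The 4 controls read 6.55, 6.58, 6.25 and 6.23 (replicates 1 to 4) and the 4 mutants 6.61, 6.76, 6.96 and 6.78. Every mutant thus lay above every control, but the gap between mutant replicate 1 and control replicate 2 was 0.04, while the controls themselves fell into a pair near 6.6 and a pair near 6.2. The difference was 0.37 ± 0.10 (SE, n = 4 per group; 95% interval 0.16 to 0.59), or 1.30-fold, with a limma adjusted p of 0.655 over all genes. The exact two-sided permutation p was 0.0286, the smallest that 4 against 4 arrays allow. A larger difference in either direction was seen in 77 genes, or 0.386% of those tested. Without mutant replicates 1 and 4 the difference was 0.45 ± 0.12 (limma adjusted p = 0.998), and leaving out any 1 array kept it between 0.31 and 0.43. Only 1 probe set reads Bcl6. Its probes were not mapped to the floxed exons here, and transcript outside those exons can still be made, so the value is no check of the deletion or of the labels.

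Since Bcl6 gave the largest difference of the 7 genes and is a target of its own protein in B cells, the 2 promoter windows that RefSeq gives for Bcl6 are shown here with their matches to the core that BCL6 and STAT proteins share. The windows of 250 bases lie just before each annotated start on the minus strand of chromosome 16 in GRCm38.p6, at chr16:23988853-23989102 (start 1) and chr16:23981284-23981533 (start 2). Capitals mark matches to TTCNNNGAA, a motif that reads the same on both strands, and the BCL6 consensus TTCCTAGAA is a special case of it.
Bcl6 start 1: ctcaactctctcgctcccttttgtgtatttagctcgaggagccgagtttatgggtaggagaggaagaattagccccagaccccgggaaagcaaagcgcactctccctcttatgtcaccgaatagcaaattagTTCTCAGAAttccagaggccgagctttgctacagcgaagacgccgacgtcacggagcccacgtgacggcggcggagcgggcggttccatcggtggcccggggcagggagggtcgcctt
Bcl6 start 2: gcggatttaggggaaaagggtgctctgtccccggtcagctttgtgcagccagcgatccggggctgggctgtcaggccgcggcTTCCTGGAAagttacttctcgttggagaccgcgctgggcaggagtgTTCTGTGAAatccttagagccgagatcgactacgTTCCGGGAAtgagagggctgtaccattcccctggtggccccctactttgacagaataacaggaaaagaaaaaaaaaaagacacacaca

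Start 1 holds 1 match, TTCTCAGAA, whose first base lies 118 bases before the start. Start 2 holds 3, TTCCTGGAA, TTCTGTGAA and TTCCGGGAA, which begin 168, 122 and 88 bases before it. Over all 32851 promoter windows of 300 bases (250 before to 50 after a start), 8.3% hold at least 1 match to TTCNNNGAA, and 11 windows, or 0.0335%, hold 3 or more. The count of windows with 3 or more was taken after the matches in Bcl6 had been seen. Neither Bcl6 window holds the consensus TTCCTAGAA, searched on both strands, which 0.411% of windows do. Of the other listed genes with a window, Bcor holds 1 core match, TTCGGAGAA, in each of 2 overlapping windows, and the second Ncor1 window holds TTCCTAGAA, beginning 6 bases into the transcript. The windows of Bcorl1, Sirt1 and Ctbp1 and the first of Ncor1 hold neither. Of the BCL6 targets listed further below, 19 have a window, and Bcl6 is the only 1 of them that holds the core. A match describes letters and is not evidence of binding.

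**Figure D1:**
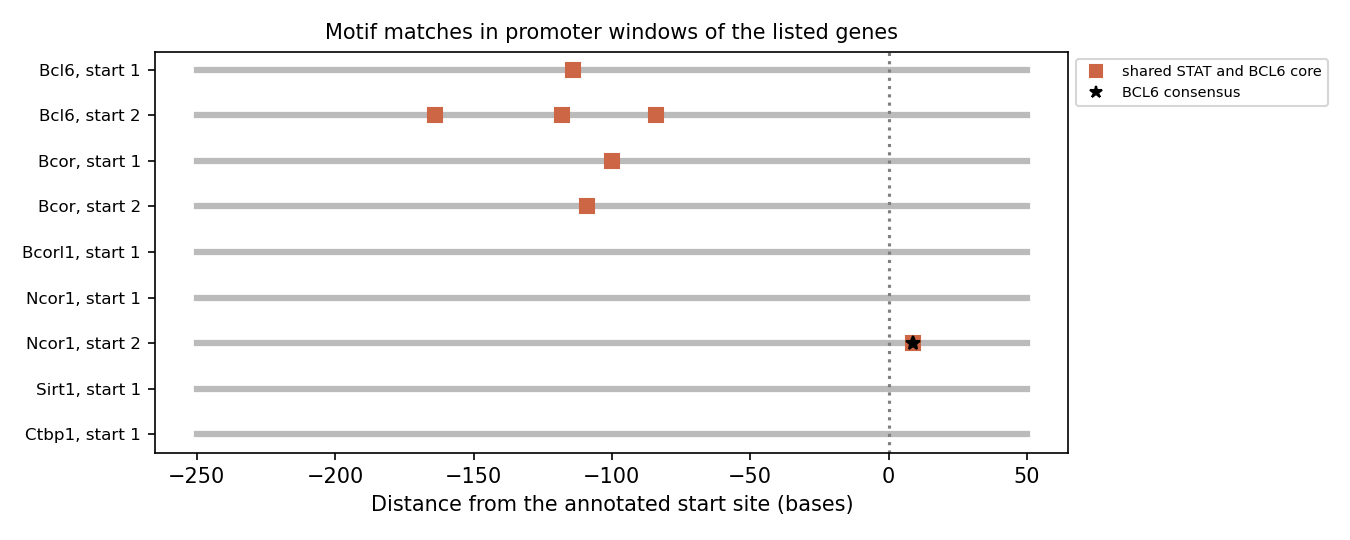
Matches in the 9 promoter windows of the 6 listed genes that have one, plotted by distance from the annotated start site (x axis, bases); grey bars are the windows, squares the core TTCNNNGAA and the star the consensus TTCCTAGAA. Bcl6 start 2 carries 3 squares, Bcl6 start 1 and both Bcor windows 1 each, and the star lies in the second Ncor1 window.

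Bcl6b, whose protein BAZF shares the zinc-finger and BTB layout of BCL6 and binds the same DNA motif, read lower in mutants. Controls read 5.95, 6.02, 6.10 and 5.93, and mutants 5.96, 5.61, 5.70 and 5.92. Mutant replicates 2 and 3 lay well below every control, mutant replicate 4 lay just below the lowest control, and mutant replicate 1 lay within the controls. The difference was -0.20 ± 0.09 (SE; 95% interval -0.39 to -0.02; limma adjusted p = 0.988; exact two-sided permutation p = 0.0857). The 2 mutants near the control level are the 2 arrays of high Xist. They averaged 5.94 against 5.66 for the other 2 mutants. Without them the difference was -0.34 ± 0.08 (limma adjusted p = 0.926). Why those 2 arrays differ from the other mutants in Bcl6b was not tested. Bcl6 and Bcl6b thus read in opposite directions, and neither was called.

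**Figure D2:**
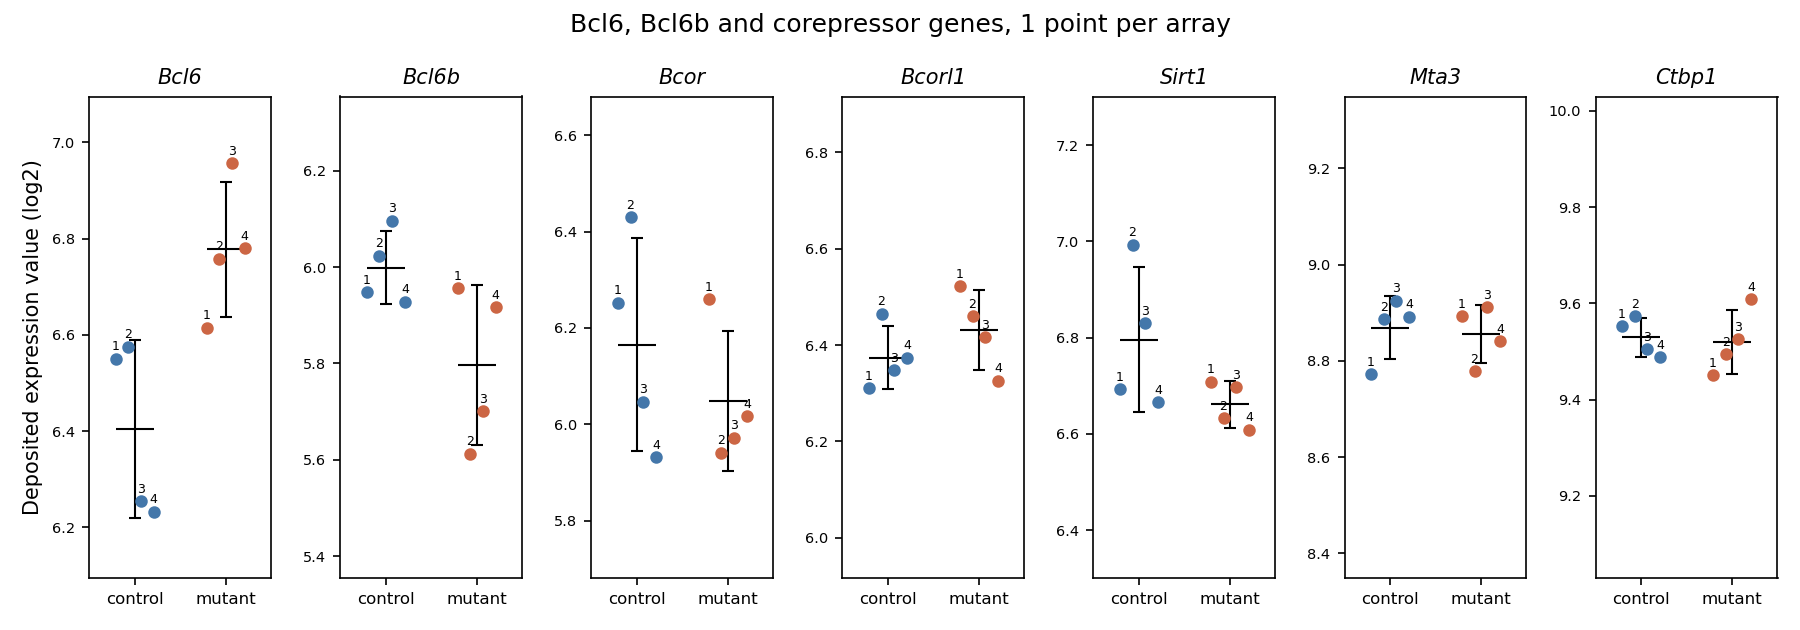
Deposited log2 values (y axis, the same span of 1 in each panel, so that levels differ between panels) of the 7 measured genes in 4 control and 4 mutant arrays; points are arrays numbered by replicate, and bars show the mean and SD. In the Bcl6 panel the mutants (6.61 to 6.96) lie above the controls (6.23 to 6.58), and in the other panels the groups overlap.

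Bcor and Bcorl1 encode paralogous corepressors on the X chromosome. BCOR binds the BTB domain of BCL6 and is a subunit of a variant Polycomb complex, PRC1.1, which marks histone H2A with ubiquitin. Bcor read 6.25, 6.43, 6.05 and 5.93 in controls and 6.26, 5.94, 5.97 and 6.02 in mutants. Its controls span the whole range of the mutants, and the difference of -0.12 ± 0.11 (SE; 95% interval -0.35 to 0.12) had a limma adjusted p of 1.0. Without mutant replicates 1 and 4 it was -0.21 ± 0.13 (95% interval -0.49 to 0.08), and without control replicate 2, the array of highest Bcor, it was -0.03.

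Bcorl1, whose protein also binds CtBP, read 6.31, 6.47, 6.35 and 6.37 in controls and 6.52, 6.46, 6.42 and 6.33 in mutants. Mutant replicate 1 alone lay above all controls. The difference of 0.06 ± 0.07 (SE; 95% interval -0.09 to 0.20; limma adjusted p = 1.0) was smaller than the SD of the mutant arrays (0.08). It was 0.03 without mutant replicate 1 and 0.09 without mutant replicate 4. In the 2 mutants of high Xist the mean was 6.14 for Bcor and 6.42 for Bcorl1, and in the other 2 mutants it was 5.96 and 6.44. Both arrays of high Xist thus held more Bcor than the other mutants, while those of Bcorl1 were the highest and the lowest of the 4.

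Sirt1, an NAD-dependent deacetylase, read 6.69, 6.99, 6.83 and 6.67 in controls and 6.71, 6.63, 6.70 and 6.61 in mutants. All 4 mutants lay below the control mean of 6.80, yet only 2 lay below the lowest control. The difference was -0.13 ± 0.08 (SE; 95% interval -0.31 to 0.04; limma adjusted p = 1.0; exact two-sided permutation p = 0.1714). Without control replicate 2, the array of highest Sirt1, the difference was -0.07. The SD was 0.15 among controls and 0.05 among mutants.

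Mta3 and Ctbp1 gave the smallest differences of the 7 genes. Mta3, a subunit that directs NuRD to BCL6, read 8.77, 8.89, 8.93 and 8.89 in controls and 8.89, 8.78, 8.91 and 8.84 in mutants. Its difference was -0.01 ± 0.06 (SE; 95% interval -0.15 to 0.13), and the sign turned with the mean of both its probe sets (0.01). The second probe set, which was not the one kept, read 5.54 ± 0.19 (SD, n = 4) in controls and 5.57 ± 0.17 in mutants. Ctbp1, a dinucleotide-binding corepressor that recruits histone-modifying enzymes, read 9.55, 9.57, 9.50 and 9.49 in controls and 9.45, 9.49, 9.53 and 9.61 in mutants. Its difference was -0.01 ± 0.06 (95% interval -0.15 to 0.13), whose sign turned under quantile normalization, median centring and array weights. Among the 5 measured corepressors the lowest 95% bound was -0.35, for Bcor, and the highest 0.20, for Bcorl1. A change within a gene's own interval was not resolved by 4 arrays a group.

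**Figure D3:**
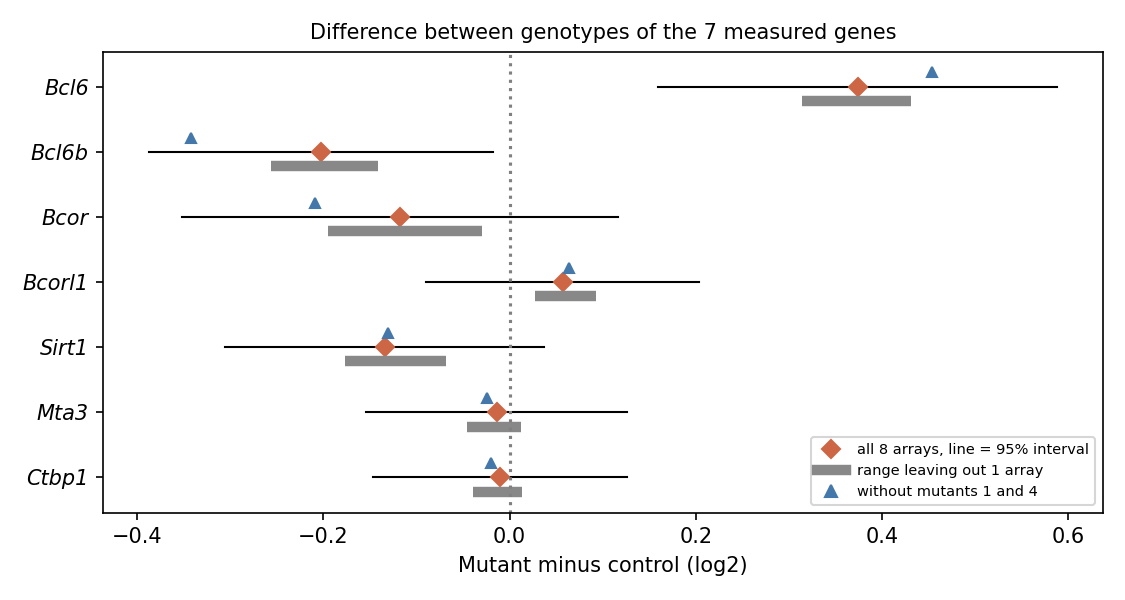
Mutant minus control on the log2 scale (x axis) for the 7 genes (y axis), with a diamond and line for the estimate and its 95% interval, a grey bar for the range over fits that leave out 1 array, and a triangle for the fit without mutant replicates 1 and 4. The Bcl6 estimate of 0.37 and the Bcl6b estimate of -0.20 have intervals that leave out 0, and those of the 5 corepressors include it.

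Some of the spread within a group was shared by several of these genes. Control replicate 2 held the highest control value in 5 of the 7 genes (Bcl6, Bcor, Bcorl1, Sirt1 and Ctbp1), as it did for 34.7% of all genes. Control replicate 4 held the lowest control value in 5 (Bcl6, Bcl6b, Bcor, Sirt1 and Ctbp1), against 28.8% of all genes. In the mutants, replicate 1 was highest for Bcl6b, Bcor, Bcorl1 and Sirt1 and lowest for Bcl6 and Ctbp1. The within-group SD was 0.16 for Bcl6, 0.19 for Bcor and 0.13 for Bcl6b, and it was 0.07 for Bcorl1, 0.11 for Sirt1, 0.06 for Mta3 and 0.06 for Ctbp1, with a median of 0.11 over all genes.

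The complexes these corepressors belong to were examined through fixed lists. Across 6 lists of partners with 51 genes tested, limma called 0 (0.0652% of all genes), and 2 had an unadjusted p under 0.05 (4.91% of all genes). In the NCoR core, with 4 of 5 listed members tested, the median difference was 0.02, and it turned to -0.05 without mutant replicates 1 and 4 and to -0.0087 without mutant replicate 1 alone. The smallest p values belonged to Tbl1xr1, an exchange factor of the complex (-0.14 ± 0.09, SE), and Gps2, a structural subunit (0.03 ± 0.08, and 0.09 ± 0.09 without those 2 arrays). Its deacetylase Hdac3 read 8.63 ± 0.12 (SD, n = 4) in controls and 8.64 ± 0.13 in mutants. In the BCOR complex, with 11 members tested, 5 differences were positive and 6 negative, and beside Bcor the smallest p belonged to Pcgf1, the Polycomb ring-finger subunit that BCOR binds (-0.07 ± 0.08, and -0.03 ± 0.09 without those 2 arrays). In NuRD 4 of 14 differences were positive and 10 negative, with a median of -0.02. Cdk2ap1, a small subunit, read -0.13 ± 0.06, and Hdac2, a catalytic deacetylase, -0.04 ± 0.07. The CtBP complex had a median of -0.01 over 9 genes, with Rcor1, a scaffold of the demethylase LSD1, at -0.08 ± 0.08 and Kdm1a, which encodes LSD1, at -0.03 ± 0.07 (-0.06 ± 0.08 without those 2 arrays). The 7 sirtuins had a median of 0.01, and beside Sirt1 the mitochondrial Sirt4 read 0.14 ± 0.07.

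The last of these lists held the class IIa deacetylases and 2 BTB zinc-finger proteins that can pair with BCL6, and both genes of unadjusted p under 0.05 were in it. Hdac9 read 8.08, 8.36, 8.19 and 8.22 in controls and 7.87, 7.78, 7.82 and 7.92 in mutants. Every mutant lay below every control, and the difference was -0.36 ± 0.07 (SE), or 1.29-fold more in controls, with a limma adjusted p of 0.265. Zbtb16, the BTB repressor PLZF, read 7.05, 7.09, 7.10 and 7.11 in controls and 6.83, 6.78, 6.95 and 6.76 in mutants, again without overlap, as in the 1.79% of all genes whose mutants lay below (-0.26 ± 0.06; limma adjusted p = 0.637). The other 4 members read 0.0046 (Hdac4), 0.0003 (Hdac5), -0.06 (Hdac7) and -0.09 (Zbtb17), and the list's median was -0.08.

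Genes that control Bcl6 and genes that BCL6 represses were examined in the same way. Of 14 regulators of the Bcl6 gene tested out of 16, 1 rose and 0 fell, against 0.0502% and 0.015% of all genes, and the median was -0.01 (0.03 without mutant replicates 1 and 4). Foxo1, a forkhead factor known to activate Bcl6 and also held by the target list, rose 1.66-fold (limma adjusted p = 0.0318). Whether Foxo1 bears on the Bcl6 value was not tested. The 4 mutants of Foxo1 (7.87 to 8.20) lay above its 4 controls (7.08 to 7.56), as in 0.963% of all genes. Its call was lost in 7 of the 8 fits that leave out 1 array, all but that without control replicate 1, with limma adjusted p of 0.057 to 0.142, and without mutant replicates 1 and 4 (0.313). The size of the Foxo1 difference, 0.73 over all arrays, stayed between 0.65 and 0.81 in those 8 fits and was 0.75 without the 2 mutants. The related Foxo4 read 0.22 ± 0.08 (SE). Bcl11a, the zinc-finger gene named with Bcl6 in the study's title, read 10.63 ± 0.07 (SD, n = 4) in controls and 10.61 ± 0.04 in mutants. Stat5a and Stat5b, whose proteins bind the core TTCNNNGAA, read -0.04 ± 0.07 (SE) and -0.03 ± 0.10. Of 7 regulators of the BCL6 protein tested out of 11, 0 were called by limma (0.0652% of all genes) and 0 had an unadjusted p under 0.05 (4.91%). Hsp90aa1, a chaperone that stabilises BCL6, read -0.06 ± 0.06, and Cul1, the scaffold of the ubiquitin ligase that degrades it, -0.04 ± 0.07 (-0.10 ± 0.08 without mutant replicates 1 and 4).

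Of 24 BCL6 targets tested out of 26, which include Bcl6 itself, 2 rose and 0 fell, against 0.0502% and 0.015% of all genes. Of the 24 differences 15 were positive, against 44.6% over all genes, and 9 negative, with a median of 0.03 (-0.0008 without mutant replicates 1 and 4). Socs2, a suppressor of cytokine signalling, rose 2.31-fold (limma adjusted p = 0.000962), and the other was Foxo1. The Socs2 difference was 1.21 with the probe set kept and 1.06 with the mean of its probe sets. Without mutant replicates 1 and 4 the count was 0 by limma, with Socs2 at 1.22 ± 0.15 (SE) and an adjusted p of 0.0539. Hes5, the cortical target silenced with SIRT1, read 6.41 ± 0.11 (SD, n = 4) in controls and 6.37 ± 0.09 in mutants. Prdm1, the B cell target that in turn represses Bcl6, read 0.12 ± 0.07 (SE). The lists were assembled with earlier results of these data known, so their counts are descriptions.

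**Figure D4:**
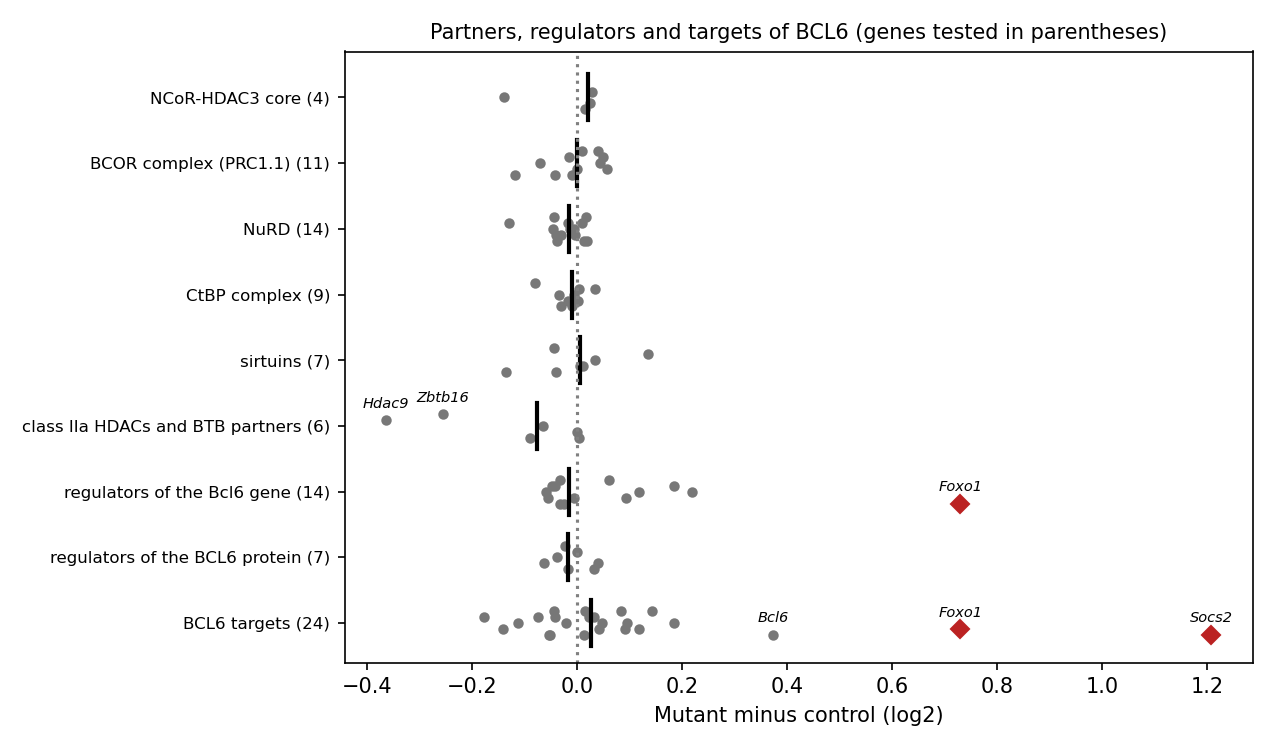
Mutant minus control on the log2 scale (x axis) for the tested members of 9 lists of BCL6 partners, regulators and targets (y axis, with the number tested). Points are genes and black ticks are list medians. Foxo1, which stands in 2 lists, and Socs2 are the red diamonds past the threshold, and medians lie between -0.08 and 0.03.

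The genes beside Bcl6 on chromosome 16 were read as values of the surrounding region, with Bcl6 itself floxed in both groups. All 8 neighbours, the 4 nearest tested genes on each side in the gene order of GRCm38.p6, had a positive difference over all 8 arrays, whereas 44.6% of all genes did. Leaving out 1 array turned the sign of Sst in 4 of 8 fits (to -0.13 at the lowest) and of Mir28a in 3 (to -0.03), and that of the other 6 in none. Their differences ran from 0.02 to 0.24 with a median of 0.13. Limma called 0 of them (0.0652% of all genes), 2 had an unadjusted p under 0.05 (4.91%), and groups did not overlap in 1, Rtp4 (2.75%). Rtp4 (3.23 in controls, 3.41 in mutants), Mir28a (3.07 and 3.09) and Tprg (3.50 and 3.63) were dim. Rtp2 (4.66 and 4.81) and Trp63 (4.695 and 4.768) were also below the lowest array median, 4.94. For comparison, Xist read 2.64 to 3.41 in control arrays. Whether these neighbours are expressed was not assessed. Lpp, the next gene on one side and an adhesion adaptor, read 5.67, 5.63, 5.32 and 5.34 in controls and 5.75, 5.84, 5.88 and 5.44 in mutants. As in Bcl6, control replicates 1 and 2 lay above control replicates 3 and 4, mutant replicate 3 was the highest array, and mutant replicates 1 to 3 lay above all controls. Mutant replicate 4, in contrast, lay within the controls, and the difference was 0.24 ± 0.11 (SE; 95% interval -0.003 to 0.48; limma adjusted p = 1.0), or 0.37 ± 0.11 without mutant replicates 1 and 4. With the mean of its probe sets the Lpp difference was 0.18 ± 0.09. On the other side Rtp2, a receptor-transporting protein, read 4.66 ± 0.10 (SD, n = 4) in controls and 4.81 ± 0.04 in mutants, and Sst, the interneuron peptide somatostatin, 6.93 ± 0.42 and 6.94 ± 0.17. Rtp4, of the same family as Rtp2, read 0.18 ± 0.07 (SE) and Masp1, a complement protease, 0.14 ± 0.07. Beyond Lpp, Mir28a read 0.02 ± 0.08, with a sign that turned under array weights, Tprg 0.13 ± 0.09 (0.22 ± 0.10 without mutant replicates 1 and 4) and Trp63, a p53 relative of epithelia, 0.07 ± 0.06.

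**Figure D5:**
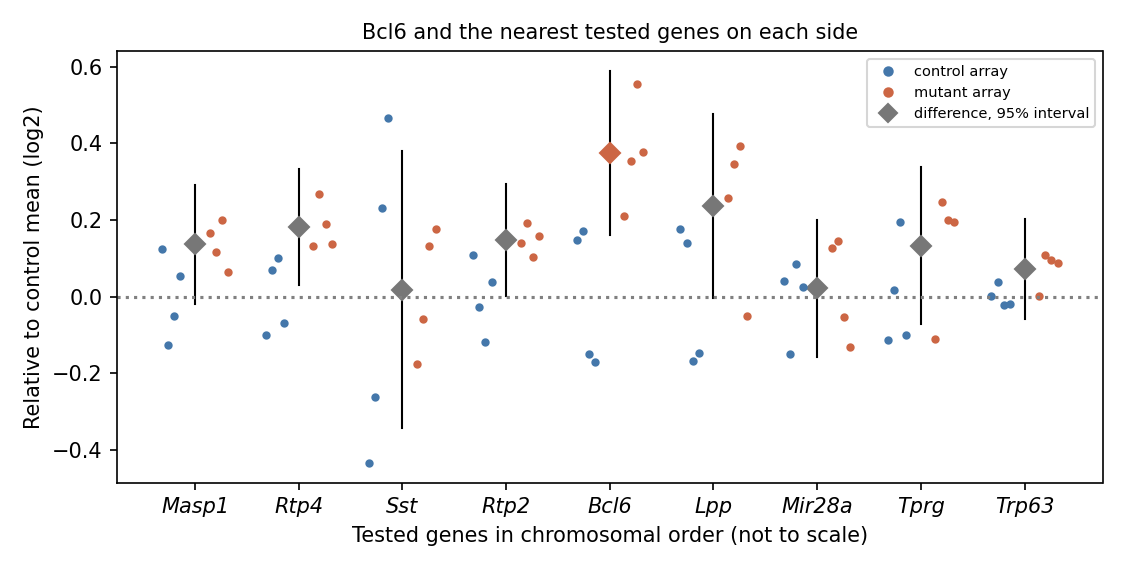
Bcl6 and 4 tested genes on each side in chromosomal order (x axis, not to scale), as values relative to the control mean (y axis, log2); small points are arrays, and diamonds with lines are the difference between genotypes with its 95% interval. All 9 diamonds lie above 0, with Bcl6 at 0.37 and Lpp at 0.24, and the 95% intervals of 6 neighbours include 0.

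Profiles most like that of Bcl6 were found by the root mean square distance over the 8 arrays after each gene was centred on its own mean. The distance has the unit of the log2 values, and its median over the other 19937 genes was 0.26. The nearest were Slc37a1, a sugar phosphate transporter (0.09), Clstn2, a postsynaptic calsyntenin (0.09), and Olfr180, an olfactory receptor (0.11). Olfr180 was dim, at 2.67 in controls and 2.92 in mutants, and whether it is expressed was not assessed. Clstn2 read 9.52, 9.50, 9.31 and 9.13 in controls and 9.74, 9.58, 9.85 and 9.72 in mutants (limma adjusted p = 0.655). Its mutants all lay above its controls, as in 0.963% of all genes. Clstn2 was picked for its likeness to Bcl6, whose groups do not overlap, so this separation is no separate result. Lpp, looked up after its values were seen, stood at 0.15, rank 50 of the 19937. Of the other listed genes Ctbp1 and Bcorl1 stood at 0.23 each, Mta3 at 0.26, Sirt1 at 0.29, Bcor at 0.30 and Bcl6b at 0.36.

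Markers of the cell types the tissue could hold were read beside these values. Over 7 lists with 42 genes tested limma called 0 (0.0652% of all genes), and 3 had an unadjusted p under 0.05 (4.91% of all genes). These 3 were Neurod6 (-0.39 ± 0.09, SE), Tbr1 (0.17 ± 0.07) and the microglial receptor gene P2ry12 (-0.27 ± 0.10). All 6 astrocyte markers had a positive difference, with a median of 0.05 and array means of 7.91 to 8.06 in controls and 7.88 to 8.12 in mutants. Fgfr3 and Aldh1l1 of that list read 0.12 ± 0.07 and 0.12 ± 0.07. Medians were -0.01 for excitatory neurons, 0.003 for interneurons (Dlx2 -0.10 ± 0.09, Gad2 0.09 ± 0.09), 0.05 for the oligodendrocyte lineage (Mbp -0.10 ± 0.06, Olig1 0.14 ± 0.09), -0.04 for microglia (Tmem119 -0.11 ± 0.08) and 0.02 for endothelium (Flt1 0.14 ± 0.08, Tek 0.09 ± 0.10). Lymphocyte markers, listed because BCL6 is abundant in germinal centre cells, had a median of -0.02 and array means of 3.31 to 3.45 in controls and 3.28 to 3.49 in mutants (Cd3e -0.22 ± 0.12, Cd4 0.15 ± 0.09). Without mutant replicates 1 and 4 the median turned to -0.05 for endothelium, with Flt1 at 0.03 ± 0.09 and Tek at -0.06 ± 0.11, and to -0.03 for interneurons, with Gad2 at -0.01 ± 0.10 and Dlx2 at 0.0001 ± 0.09. It was then 0.0022 for astrocytes, 0.01 for the oligodendrocyte lineage, with Olig1 at 0.21 ± 0.11, -0.08 for excitatory neurons, -0.05 for lymphocytes and -0.04 for microglia. The part of these cell types in the Bcl6 value was not tested.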

How the data were processed

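Values deposited by the authors are log2 expression of 35556 probe sets on 8 arrays, made with BRB-ArrayTools per the labels. How background, normalization and summarization were done is not stated there, and the scale was read from the range of the values. Of 23410 probe sets in the platform annotation, 21789 named 1 gene, 1621 named several, and 21698 matched the GRCm38.p6 gene table by identifier. For 999 genes with several probe sets the one of highest mean was kept. The fit was limma 3.58.1 in R 4.3.3 (lmFit, eBayes, genotype the only term, no filter, two-sided), with Benjamini-Hochberg over 19938 genes, tested on simulated data. Differences are mutant minus control with moderated SE. The members and lists were chosen with earlier results of these data known. The text names the 7 measured genes, list members past the threshold and the 2 of smallest p per list, the 3 nearest profiles and 8 neighbours, and other genes chosen for their role. Promoter sequences are RefSeq's (GRCm38.p6). For 6 of the 8 listed genes a window was given there. The labels do not say that replicate numbers pair pups.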

Additional observations from a re-analysis of the deposited data

Results flagged for a closer look

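One array stood apart from the other 3 of its group in 4 of 94 groups checked (47 genes, both genotypes), by the gap to the nearest array as a share of the group's range against Dixon's critical value for 4 samples. Chance alone gives about 1 in 20. None of the 14 groups of the measured listed genes was among them. Neurod6 read 9.41 in control replicate 2 and 9.15 to 9.17 in the other controls. Flt1, an endothelial receptor, read 6.13 in control replicate 1 against 6.33 to 6.34. Kdm1a of the CtBP complex read 8.79 in mutant replicate 3 against 8.91 to 8.93. Tprg, a neighbour of Bcl6, read 3.39 in mutant replicate 1 against 3.69 to 3.74.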

How the results depend on the processing

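Alternatives were a replicate block, array weights, a robust prior or one with a trend, quantile normalization, median centring, dropping dim genes, averaging probe sets and leaving out each array. Leaving out both arrays of high Xist was added after seeing the data. Under all 17 settings 0 of the 7 genes were called, and Bcl6, Bcl6b, Bcor, Bcorl1 and Sirt1 kept their sign; the limma adjusted p of Bcl6 ran from 0.384 to 0.998. Ctbp1 turned to 0.0013 with quantile normalization, 0.0015 with median centring and 0.0037 with array weights, and leaving out 1 array gave -0.0395 to 0.0129. Mta3 turned to 0.0065 with the mean of its probe sets and ran from -0.0457 to 0.0122 leaving out 1 array. Under the same omissions Gps2 ran from -0.0237 to 0.064, Kdm1a from -0.0482 to 0.0048, Mir28a from -0.0287 to 0.0723 and Sst from -0.1264 to 0.1738. Mir28a was -0.0151 with array weights, and without both arrays of high Xist Dlx2 was 0.0001, Gad2 -0.0126 and Tek -0.0593. Genes called over the whole table numbered 13, against 3 to 13 leaving out 1 array, 2 without both arrays of high Xist and 5 with the replicate block; list members called numbered 2, against 1 to 2 and, without both arrays of high Xist, 0. The cause was not tested. The deviations of same-numbered arrays from their group means had correlations of -0.012 to 0.159 over all genes, and 3 of 8 arrays correlated best with their own number, so the numbers were not taken to pair pups.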
